A study of Mus musculus with 4 samples.

Results

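A small set of bile duct epithelial cells rich in the transcripts of the antimicrobial lectins Reg3b and Reg3g was described in the mouse library labelled Prom1_BcatGOF. Cells were taken by a fixed rule: at least 500 detected genes, at most 25% mitochondrial UMIs, no UMI of the pan-leukocyte gene Ptprc, at least 1 UMI each of the epithelial genes Epcam and Krt19, and no UMI of the Wnt target genes Lgr5 and Notum. Of these gated cells, those with 10 or more UMIs of Reg3b plus Reg3g are called Reg3-high, and those with 0 or 1 are called Reg3-low. The members were thus selected on their measured Reg3b and Reg3g counts, and the Reg3 levels below are a description. A UMI is a molecular tag, so each count stands for 1 captured transcript molecule. The rule found 254 Reg3-high and 3293 Reg3-low cells among 3984 gated cells of that library, out of 22968 cell barcodes in the whole series, and 437 gated cells lay between the 2 limits.

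The series holds 4 droplet libraries of all cells from dissociated common bile duct, with no treatment. There is 1 library of the genotype Prom1_BcatGOF (GOF below), described as a mosaic gain of Ctnnb1 function (the β-catenin gene), and there are 3 wild-type libraries. Age, the construct and the recombined cells are not described in the labels, and no label says whether separate animals gave the wild-type libraries. The p-values therefore measure only the spread between these libraries, which may be technical. The mosaic state means that a GOF cell below may or may not carry the altered allele. Ctnnb1 itself had 235 CPM (UMIs of the gene per 1000000 UMIs of the class) in GOF Reg3-high cells against 641 and 643 in Reg3-high cells of wild-type libraries 1 and 2, and since a 3′ tag does not show which allele it came from, this does not check the label.

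Reg3b and Reg3g belong to the Reg family of secreted C-type lectins, which bind bacteria on mucosal surfaces and are induced in gut and pancreatic epithelium under inflammation. Lactotransferrin (Ltf) and lipocalin 2 (Lcn2) withhold iron from bacteria, directly or by binding their siderophores, and matrilysin (Mmp7) is a protease that processes epithelial defensins. Bile duct epithelium carries bile and faces gut bacteria at its outlet, and it is known to secrete antimicrobial proteins and to transport IgA.

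Reg3b, Reg3g, Reg1 and Reg2 lie together on mouse chromosome 6 within 98.2 kb (GRCm38, GENCODE annotation). Reg3b (ENSMUSG00000071356) spans 78370657 to 78373466, Reg2 (ENSMUSG00000023140) spans 78395623 to 78408106 and Reg1 (ENSMUSG00000059654) spans 78422711 to 78428667, all on the plus strand. Reg3g (ENSMUSG00000030017) spans 78466269 to 78468872 on the minus strand. The other marker genes lie elsewhere: Lcn2 (ENSMUSG00000026822) on chromosome 2 at 32384633 to 32388252, Mmp7 (ENSMUSG00000018623) on chromosome 9 at 7692090 to 7699585, and Ltf (ENSMUSG00000032496) on chromosome 9 at 111019271 to 111042767.

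The 150 bases before the RefSeq start of 3 marker genes are printed (GRCm38.p6, 5′ to 3′ on the strand of the gene), since Reg3b and Reg3g define the cells and Mmp7 is a marker from another locus. Capitals mark matches to 3 letter patterns searched on both strands: the TATA box TATAAA, the STAT pattern TTCNNNGAA and the AP-1 pattern TGANTCA. Reg3b lies at chr6:78370735-78370884 on the plus strand, Reg3g at chr6:78468875-78469024 on the minus strand and Mmp7 at chr9:7691940-7692089 on the plus strand.
Reg3b: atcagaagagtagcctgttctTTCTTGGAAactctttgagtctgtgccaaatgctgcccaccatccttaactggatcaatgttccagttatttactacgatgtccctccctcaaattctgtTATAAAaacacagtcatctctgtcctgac
Reg3g: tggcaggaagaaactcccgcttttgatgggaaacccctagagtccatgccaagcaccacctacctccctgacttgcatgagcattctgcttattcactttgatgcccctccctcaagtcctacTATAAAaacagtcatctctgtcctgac
Mmp7: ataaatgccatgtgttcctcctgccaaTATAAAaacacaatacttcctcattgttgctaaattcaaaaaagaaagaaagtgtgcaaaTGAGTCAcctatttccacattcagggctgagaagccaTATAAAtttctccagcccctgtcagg

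The Reg3b and Reg3g windows matched at 104 of 152 aligned columns (68.4%), against 45.7% for Reg3b and Mmp7 and 53.2% for Reg3b and Reg1. A TATA box began 29 bases before the start in Reg3b, 27 in Reg3g and 26 in Mmp7, and the Reg1 and Reg2 windows held one at 30 bases. TATAAA occurs in 7.57% of 32851 such windows in the RefSeq table. The STAT pattern, found in 4.09% of windows, occurred in the Reg3b window alone among the 7 genes searched. The AP-1 pattern, found in 4.24% of windows, occurred in the Mmp7 and Reg1 windows. The Ltf and Lcn2 windows held none of the 3. A match is a run of letters and not a measured binding site.

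Reg3-high cells were present in every library, so the class is not particular to the GOF duct. Their share of gated epithelial cells was 6.38% in GOF (exact Clopper-Pearson 95% interval 5.64 to 7.18), 7.39% in wild-type library 1 (6.49 to 8.37), 4.28% in library 2 (3.28 to 5.47) and 1.56% in library 3 (0.875 to 2.56). These intervals cover counting error only. The wild-type classes held 227 Reg3-high cells of 3071 gated cells, 60 of 1403 and 15 of 962. The GOF share lay inside the range of the wild-type libraries.

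Depth differed between the libraries and between the classes. Reg3-high cells had a median of 13177 UMIs against 7338 in Reg3-low cells of GOF, 11934 against 6721.5 in wild-type library 1, 17149 against 3655 in library 2 and 9089 against 2873 in library 3. After each cell was thinned to 2000 UMIs and called high at 3 or more Reg3 UMIs, the shares were 5.27%, 5.46%, 3.73% and 1.89% in the same order, with 398, 121, 117 and 222 shallower cells left out. The order of the libraries was the same as without thinning. Of the 1958 GOF immune barcodes with Ptprc and no Epcam, which should lack these genes, 10.6% had any Reg3 UMI at a median depth of 6710.5 UMIs and 1 cell (0.0511%) reached 10. Doublet scoring marked 17 of the 254 Reg3-high cells (6.69%) and 6.68% of the Reg3-low cells of GOF. GOF epithelial cells with Lgr5 or Notum, which the rule leaves out, held 164 Reg3-high cells of 1166 (14.1%, 12.1 to 16.2), or 7.20% (5.77 to 8.85) after thinning.

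Wild-type library 3 stood apart in this class. Of its 15 Reg3-high cells, 11 carried at least 1% of RNA from other cell types, and the list of pancreatic acinar enzymes took 321416 CPM of their summed UMIs against 1333 CPM in its Reg3-low cells. With cells limited to under 3 acinar UMIs its share was 0 of 134 cells, which allows up to 2.72%, while the shares of the other libraries were 4.64% in GOF, 5.03% in library 1 and 2.25% in library 2. Tests that use Reg3-high cells therefore took wild-type libraries 1 and 2, the ones with at least 20 cells in both classes. The test of Reg3-low cells between genotypes took all 3 wild-type libraries, so its wild-type set differs.

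**Figure D1:**
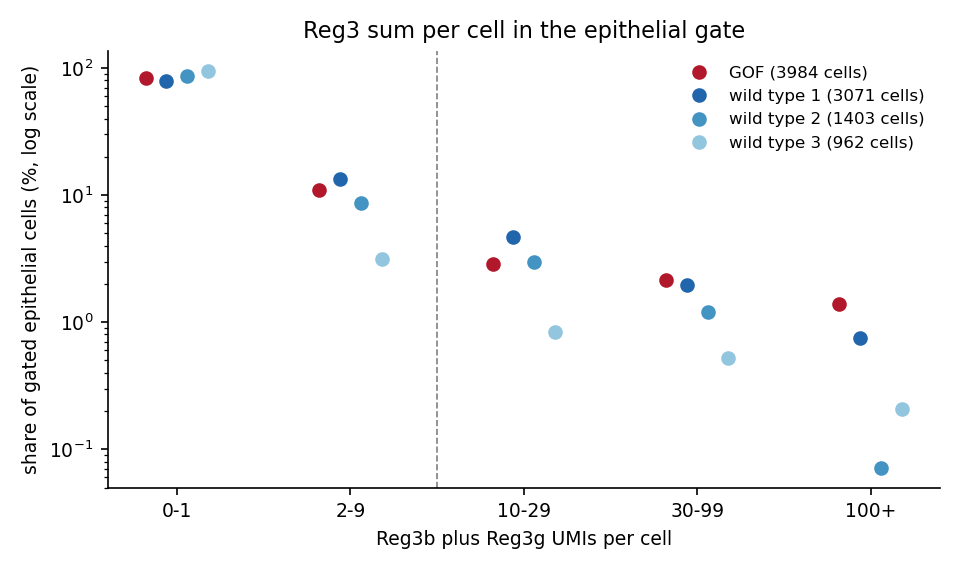
Share of gated epithelial cells (%, log axis) in each bin of the Reg3b plus Reg3g UMI sum per cell, with 1 point per library and the dashed line between cells below and at the limit of 10 UMIs. GOF sits among the wild-type libraries from 10 to 29 UMIs and above all of them at 100 or more UMIs (55 of 3984 cells).

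The Reg3 level varied over a wide range among the 254 cells. The sum of Reg3b and Reg3g was 10 at the lowest, 17 at the first quartile, 33 at the median, 81.75 at the upper quartile and 2984 in the highest cell. The 10 highest cells held 48.5% of all 32252 Reg3 UMIs of the class, so the summed level is set largely by few cells. In wild-type library 1 the median was 23, the highest cell had 385 and the top 10 cells held 22.6%. The medians in libraries 2 and 3 were 20 and 26, with highest cells of 131 and 152.

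Reg3b and Reg3g occurred together in 214 of the 254 cells, with 4 cells positive for Reg3b alone and 36 for Reg3g alone. Reg3b made up 44.9% of the Reg3 UMIs in GOF Reg3-high cells, against 23.6% in wild-type library 1, 15.1% in library 2 and 94.0% in library 3, whose cells are the acinar-rich ones. Across the 254 GOF cells, which share 1 library and differ in depth, the Spearman coefficient of the CPM values was 0.56 for Reg3b with Reg3g, 0.62 for Reg3b with Reg1 and 0.52 for Reg3g with Reg1. It was 0.59 for Reg1 with Reg2, 0.67 for Ltf with Lcn2 and 0.08 for Reg1 with Lcn2. In wild-type libraries 1 and 2 it was 0.33 and -0.09 for Reg3b with Reg3g, 0.37 and 0.08 for Reg3g with Reg1, and 0.34 and 0.30 for Ltf with Lcn2. These coefficients are descriptions of sparse counts among cells selected on Reg3b and Reg3g, and those of the Reg3 pair draw on the values of the rule.

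The cells carried the 6 markers of their label: 250 of 254 GOF Reg3-high cells had Reg3g, 218 Reg3b, 205 Reg1, 241 Ltf, 253 Mmp7 and 247 Lcn2. The median cell had 11 UMIs of Reg3b, 18.5 of Reg3g, 8 of Reg1, 18.5 of Ltf, 36 of Mmp7 and 58 of Lcn2. Many of the 3293 GOF Reg3-low cells carried single markers too: 2541 had Mmp7, 2161 Lcn2 and 1434 Ltf, while 182 had Reg1. Reg1, Ltf, Mmp7 and Lcn2 were all detected together in 194 GOF Reg3-high cells (76.4%) and in 85 Reg3-low cells (2.58%). The same shares were 57.7% and 2.96% in wild-type library 1, 46.7% and 0.573% in library 2, and 13.3% and 3.05% in library 3. The deeper cells of the Reg3-high class make joint detection easier, and these shares were not thinned.

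Levels below are CPM of UMIs summed over the cells of a class. The GOF contrast of Reg3-high with Reg3-low cells chose the members and comes from 1 library, so it is given as a description with counting intervals and no test. Among 13458 genes with at least 50 UMIs over both GOF classes, 213 (1.58%) were at least 2-fold higher in Reg3-high cells and 1311 (9.74%) at least 2-fold lower. The same gate in wild-type libraries 1 and 2, which the rule did not use, gave the test: edgeR's quasi-likelihood test, blocked by library, with Benjamini-Hochberg adjustment, with 1 residual degree of freedom. Of 12004 genes tested there, Reg3b and Reg3g left out, 561 (4.67%) rose and 465 (3.87%) fell at an adjusted p under 0.05.

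Reg1 and Reg2, the linked members of the Reg family, had the largest GOF ratios among genes with at least 20 CPM in the higher class, Reg3b and Reg3g left out. Reg1 was at 2419 CPM in GOF Reg3-high cells against 6.85 in Reg3-low cells, a ratio of 353 (95% counting interval 310 to 404). In wild-type libraries 1 and 2 Reg1 was at 498 against 29.3 and at 554 against 6.03 CPM, and the rise passed the edgeR test (log2 fold change 5.21, SE 0.52, adjusted p = 0.00181). In library 3, where acinar RNA was abundant, it was at 13897 against 32.8 CPM. Reg2 was at 96.1 against 0.329 CPM in GOF, a ratio of 292 (162 to 590). Its wild-type values were 19.0 against 0.777 and 8.08 against 0.67 CPM (log2 fold change 4.36, SE 0.437, adjusted p = 0.00181 by edgeR). Every library was higher in the Reg3-high class for both genes. Acinar cells also make Reg proteins, and the acinar list was at 185 against 210 CPM in the GOF classes, at 241 against 616 in library 1 and at 5233 against 332 in library 2. In library 2, 364 of the 617 Reg1 UMIs of Reg3-high cells lay in 16 cells with 10 to 12 Reg3 UMIs. The acinar list was at 25352 CPM over those 16 cells. Only 1 Reg3-high cell of library 2 had at least 1% acinar RNA, so this summed level does not hold for each cell. The part of acinar RNA in the Reg1 value was not tested. In GOF 8 of the 17 acinar genes, among them Cela3b, Cpa1, Pnlip and Prss2, were at 0 in Reg3-high cells. These named genes had 3, 2, 5 and 10 UMIs in the far larger Reg3-low class of GOF, so a count of 0 does not set the classes apart.

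The iron-withholding proteins moved with the Reg genes by smaller factors. Ltf was at 1693 against 224 CPM in GOF, a ratio of 7.56 (7.32 to 7.81), and at 1798 against 482 and 1701 against 234 CPM in wild-type libraries 1 and 2. It rose in the wild-type test (log2 fold change 2.43, SE 0.202, adjusted p = 0.000866 by edgeR). Lcn2 was at 7232 against 1145 CPM in GOF (ratio 6.32, 6.22 to 6.41), at 9524 against 3143 in library 1 and at 5377 against 625 in library 2. It rose too (log2 fold change 2.40, SE 0.302, adjusted p = 0.00447 by edgeR). In library 3 the classes lay close together, with Ltf at 97.4 against 68.7 CPM and Lcn2 at 450 against 573 CPM. Ltf and Lcn2 are also neutrophil granule genes. Other defining neutrophil genes were near 0 in GOF Reg3-high cells, with S100a9 at 15.5 and S100a8 at 2.55 CPM and Csf3r, Ly6g and Mmp8 at 0. Of 5 rated genes of the neutrophil list 3 (Ltf, Lcn2 and S100a9) were at least 2-fold higher in GOF Reg3-high cells and 2 (S100a8 and Il1b) lower. Itgam, an integrin gene of myeloid cells picked after its values were seen, was at 46.3 CPM in Reg3-high cells, in 102 of 254 cells, against 9.90 CPM in Reg3-low cells. It rose in wild type too (2.07, adjusted p = 0.00652 by edgeR), and its source was not tested.

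Mmp7 was at 3136 against 934 CPM in GOF, a ratio of 3.36 (3.29 to 3.43). Its wild-type values were 401 against 129 and 510 against 120 CPM, and 1472 against 1068 in library 3. The rise in libraries 1 and 2 passed the test (log2 fold change 1.92, SE 0.126, adjusted p = 0.000257 by edgeR). Its levels in both GOF classes were above those of libraries 1 and 2, while library 3 lay near GOF in its Reg3-low cells.

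**Figure D2:**
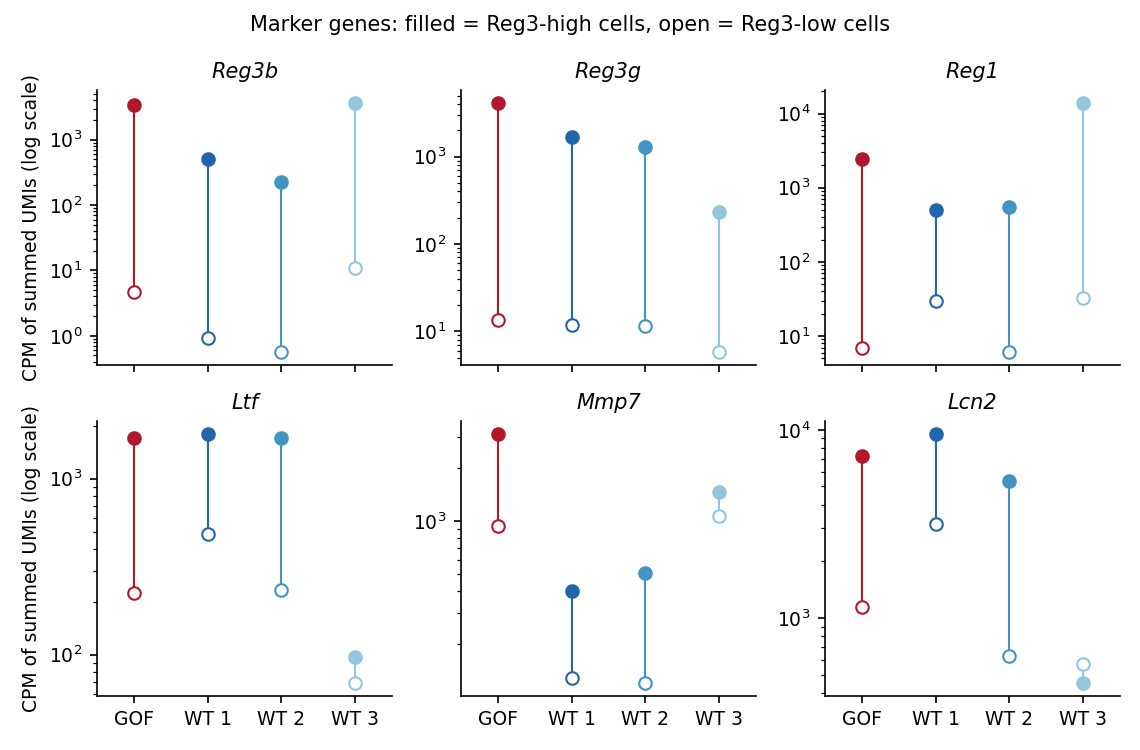
CPM of summed UMIs (log axes) of the 6 marker genes in Reg3-high (filled) and Reg3-low (open) cells of each library. Reg3b and Reg3g are fixed by the rule. The 4 other genes are higher in the Reg3-high class in GOF and in wild-type libraries 1 and 2, and Lcn2 is lower there in library 3 alone.

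The markers changed step by step with the Reg3 sum in GOF, and no break lay at the limit of 10 UMIs. Over bins of 0 to 1, 2 to 9, 10 to 29, 30 to 99 and 100 or more Reg3 UMIs, Reg1 was at 6.85, 64.0, 531, 1620 and 6926 CPM. Ltf was at 224, 672, 1464, 1644 and 2167 CPM, and Mmp7 at 934, 1836, 3113, 2872 and 3583 CPM. Lcn2 was at 1145, 3394, 6741, 6297 and 9527 CPM. Reg1 was still several-fold apart between the last bins, while Ltf, Mmp7 and Lcn2 had reached most of their level at 10 to 29 UMIs. Just outside the limit, in 64 cells with 7 to 9 Reg3 UMIs, Reg1 was at 159, Ltf at 1022, Mmp7 at 2694 and Lcn2 at 5191 CPM. Just inside it, in 36 cells with 10 to 12, they were at 272, 1324, 2957 and 5949 CPM. The epithelial gate genes were flat, with Krt19 between 2462 and 2786 CPM and Epcam between 1664 and 2054 CPM over the bins.

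**Figure D3:**
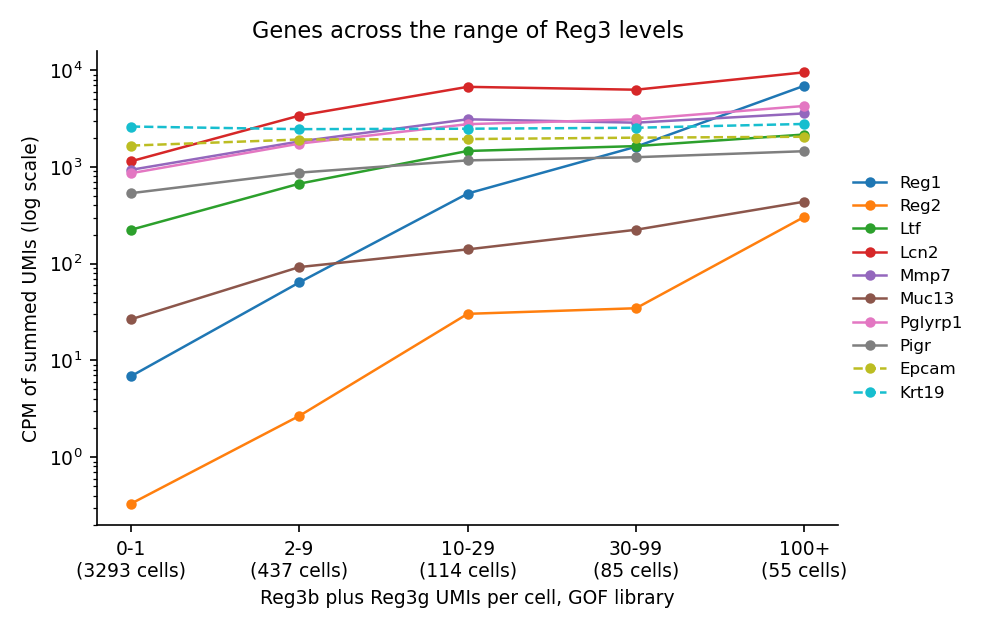
CPM of summed UMIs (log axis) in GOF gated cells by their Reg3b plus Reg3g UMI sum, with cell numbers under each bin. Reg1 and Reg2 climb through the last bin, Muc13 climbs through every bin, Lcn2, Mmp7, Ltf, Pglyrp1 and Pigr climb mainly over the first 3 bins, and Epcam and Krt19 (dashed) stay level.

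Muc13, a membrane mucin of the gut and duct surface, followed the markers. It was at 240 against 26.6 CPM in GOF (ratio 9.04, 8.26 to 9.90), at 253 against 70.5 and 407 against 51.0 CPM in wild-type libraries 1 and 2, and rose in the wild-type test (log2 fold change 2.46, adjusted p = 0.00181 by edgeR). Of the other genes with the largest GOF ratios, 3 rose in wild type too. Cfhr2, a complement factor H related gene, was at 21.3 against 1.17 CPM in GOF (log2 fold change 1.17 in wild type, adjusted p = 0.00584 by edgeR). Ceacam10 was at 21.8 against 3.68 CPM (1.91, adjusted p = 0.00364 by edgeR), and Sprr2a3, an epithelial envelope gene, at 61.1 against 11.1 CPM (0.95, adjusted p = 0.0271 by edgeR). Clca1 and Guca2a, goblet and enterocyte genes, also had large GOF ratios, but a single cell held 98.0% of the Clca1 UMIs and 76.2% of the Guca2a UMIs, and neither passed the wild-type test (adjusted p = 0.908 and 0.0855 by edgeR). The smallest GOF ratios belonged to the gut and islet hormones Pyy, Ghrl, Iapp and Ppy, to the antibody genes Jchain, Igkc and Igha, and to Chl1, Dlc1 and Itm2a. A single Reg3-low cell held 68.0% of the Ghrl UMIs and 74.9% of the Iapp UMIs of that class.

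The list of secreted defence genes held 19 genes with enough GOF UMIs, and 8 were at least 2-fold higher and 5 at least 2-fold lower in GOF Reg3-high cells (median log2 ratio 0.90, against -0.12 over all genes). In wild type 7 of 20 rose and 3 fell (median 0.49 against -0.01). The 7 were Ltf, Lcn2, Pigr, Nos2, Duox2, Duoxa2 and Pglyrp1, and the 3 were Slpi, Saa3 and Hp; the examples Pglyrp1, Slpi and Saa3 were picked after their values were seen. Pglyrp1, which encodes a peptidoglycan-binding protein, was at 3247 against 862 CPM in GOF and rose in wild type (log2 fold change 1.29, adjusted p = 0.00312 by edgeR). Slpi, a secreted protease inhibitor, was at 430 against 1279 CPM in GOF and fell in wild type, from 488 to 75.1 CPM in library 1 and from 722 to 95.2 CPM in library 2 (log2 fold change -2.75, adjusted p = 2.7e-05 by edgeR). Saa3, an inducible serum amyloid, was at 351 against 1346 CPM in GOF and fell in wild type (-3.21, adjusted p = 0.000608 by edgeR). Dmbt1, the most abundant gene of the list, was at 9613 against 6660 CPM in GOF and did not pass the wild-type test (0.29, adjusted p = 0.171 by edgeR). The defence genes thus did not move as a block: RNA of Ltf, Lcn2 and Pglyrp1 was higher in the Reg3-high class and that of Slpi and Saa3 lower. The fibroblast and mesothelial lists were lower in this class too, with median log2 differences of -3.92 and -5.12 in wild type and -2.26 and -1.53 in GOF. The part of such RNA in the Slpi and Saa3 values was not tested.

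Pigr, Duox2, Duoxa2 and Muc4 were picked after their values were seen and stand for no group. Pigr, the receptor that carries IgA across the epithelium, was at 1270 against 536 CPM in GOF and rose in wild type (log2 fold change 1.56, adjusted p = 0.00184 by edgeR). Duox2, an epithelial oxidase, was at 189 against 105 CPM in GOF and rose in wild type (1.38, adjusted p = 0.00922 by edgeR), as did Duoxa2, its maturation factor (1.14, adjusted p = 0.0326 by edgeR). The membrane mucin Muc4 was at 149 against 56.9 CPM in GOF and rose in wild type (2.20, adjusted p = 0.000874 by edgeR). Lrg1, a secreted acute phase protein that the rule named, was at 544 against 159 CPM in GOF and rose in wild type (2.16, adjusted p = 0.00139 by edgeR).

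Most genes of the NF-κB target and chemokine list rose in wild type: 14 of 22 rose and 1, the cytokine gene Il18, fell (median log2 fold change 1.01, all genes -0.01). In GOF Cxcl5 alone of 23 was at least 2-fold higher, and Cxcl2, Ccl2, Csf3, Il23a and Il33 were at least 2-fold lower (median -0.22, all genes -0.12). Whether the GOF and wild-type contrasts differ was not tested. Cxcl5, a neutrophil chemokine, was at 4133 against 2259 and 3751 against 657 CPM in wild-type libraries 1 and 2 (log2 fold change 1.74, adjusted p = 0.0194 by edgeR) and at 437 against 216 CPM in GOF. Cxcl2, another neutrophil chemokine picked after its values were seen, was at 62.8 against 11.3 and 32.3 against 11.1 CPM in wild type (2.21, adjusted p = 0.00139 by edgeR) and at 17.1 against 42.0 CPM in GOF. In GOF the Reg3-low class thus had more Cxcl2. The lymphocyte list was at 38.2 against 966 CPM in the GOF classes and the macrophage list at 263 against 247 CPM, and their part in these values was not tested.

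Among the largest wild-type rises were 3 further inflammatory genes and 3 genes of transport or membranes. Nos2, the inducible nitric oxide synthase, was at 203 against 34.5 and 203 against 16 CPM in wild-type libraries 1 and 2 (log2 fold change 3.12, adjusted p = 0.00067 by edgeR) and at 16.7 against 2.69 CPM in GOF. Tnip3, an inhibitor of NF-κB signalling, was at 207 against 54.7 and 198 against 18.4 CPM (2.67, adjusted p = 0.00345 by edgeR) and at 47.7 against 24.3 CPM in GOF. Cxcl3 rose as well (2.31, adjusted p = 0.00285 by edgeR). Slc5a8, a carrier of short-chain fatty acids, rose in wild type (3.24, adjusted p = 0.000783 by edgeR), with Slc24a3 (2.74, adjusted p = 0.002) and Anxa10 (2.57, adjusted p = 0.00844). Nos2 and Tnip3 were higher in Reg3-high cells in GOF too, at lower levels than in wild type.

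The largest wild-type falls named by the rule were genes of other cell types and of the mucous glands. Matrix genes of fibroblasts were nearly absent from wild-type Reg3-high cells: Dcn was at 3.20 against 107 and 27.8 against 575 CPM (log2 fold change -4.61, adjusted p = 2.7e-05 by edgeR), and Ptgis fell with it (-4.59, adjusted p = 9.92e-05 by edgeR). Col1a1 had 2 UMIs in the Reg3-high cells of libraries 1 and 2 together, a pooled ratio to Reg3-low cells of 0.0167 (counting interval 0.00202 to 0.0607), Ccdc80 had 2 (0.0157, 0.0019 to 0.057) and Aebp1 had 3 (0.0188, 0.00388 to 0.0552). The mesothelial gene Upk3b had 3 UMIs (0.0268, 0.00552 to 0.0787). The islet genes Ins1 and Ppy fell by 6.79 and 5.98 on the log2 scale (adjusted p = 0.00129 and 2.7e-05 by edgeR), mainly through library 1. Ins1 was at 5.48 against 763 CPM in library 1 and at 1.796 against 3.798 CPM in library 2. Ppy was at 3.197 against 210.6 CPM in library 1 and had 0 against 7 UMIs in library 2. The list of endocrine genes was at 3165 CPM in Reg3-low cells of library 1, where 1 cell had at least 1% of such RNA. In GOF Dcn was at 154 against 664 CPM and Col1a1 at 19.7 against 120 CPM.

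These falls go with a difference in the RNA of other cells between the classes. The fibroblast list summed to 311 against 1465 CPM in GOF, 16 against 202 in wild-type library 1 and 79.0 against 1151 in library 2. All 10 fibroblast genes were at least 2-fold lower in GOF (median log2 ratio -2.26), and 6 of 7 tested fell in wild type. Of the mesothelial list 7 of 8 were at least 2-fold lower in GOF and 6 of 7 fell in wild type. Cells with at least 1% of their UMIs in 7 lists of other cell types were 4 of 254 Reg3-high and 153 of 3293 Reg3-low cells in GOF. They were 0 of 227 and 34 of 2436 cells in library 1, and 1 of 60 and 59 of 1221 cells in library 2. The Reg3-low classes are far larger, so the raw counts alone do not compare the classes. With 0 and 1 such Reg3-high cells, libraries 1 and 2 say little about the shares. Summed acinar RNA ran the other way in library 2, at 5233 CPM in Reg3-high cells against 332 CPM. Only 1 of those Reg3-high cells had at least 1% acinar RNA, and the median share per cell was 0.0217% against 0.0295%.

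Gland genes differed between the classes in wild type. Of 14 genes of the gland and mucous list 7 fell and 2, Muc4 and Muc13, rose in wild type (median log2 fold change -1.23, all genes -0.01), while in GOF Tff1, Muc4 and Muc13 were at least 2-fold higher and Muc16 lower (median 0.17, all genes -0.12). Gkn3, a gastric-type gland gene, had 3 UMIs in wild-type Reg3-high cells (pooled ratio 0.0136, 0.0028 to 0.0398). Muc6, the mucin of mucous glands, was at 0.685 against 21.4 and 0.898 against 59.5 CPM (log2 fold change -5.25, adjusted p = 9.92e-05 by edgeR). In GOF Gkn3 was at 108 against 62.3 CPM and Muc6 at 25 against 41.9 CPM, and a single cell held 82.7% of the Gkn3 UMIs and 53.7% of the Muc6 UMIs of the Reg3-high class. Pgc and Aqp5, picked after their values were seen, fell in wild type (-3.84 and -3.35, adjusted p = 9.92e-05 and 0.00285 by edgeR) and were at 101 against 144 and 132 against 215 CPM in GOF. Spp1, the duct secretory gene osteopontin, fell in wild type from 2259 to 951 and from 3273 to 816 CPM (-1.57, adjusted p = 0.00181 by edgeR) and was at 3976 against 4223 CPM in GOF.

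Duct identity genes differed by small amounts in GOF. Of 27 biliary identity genes in GOF none was at least 2-fold higher and Sox17 was lower (median log2 ratio 0.01). In wild type 5 of 27 rose (Epcam, Krt8, Krt19, Cldn4 and Cdh1) and 3 fell (Foxa3, Onecut1 and Spp1), against 4.67% and 3.87% of all genes. Krt19 was at 2578 against 2620 CPM in GOF and rose in wild type (log2 fold change 0.53, adjusted p = 0.00593 by edgeR), and Epcam was at 1994 against 1664 CPM (0.29 in wild type, adjusted p = 0.0367 by edgeR, and -0.14 with all 3 wild-type libraries). Both are gate genes with a minimum of 1 UMI. Prom1 was at 244 against 234 CPM in GOF and did not pass the wild-type test (0.39, adjusted p = 0.1 by edgeR). Spink4, a secreted gene of goblet-type cells that is very abundant in this epithelium, was at 3956 against 1786 CPM in GOF and at 30712 against 20970 and 34987 against 16549 CPM in wild-type libraries 1 and 2 (0.87, adjusted p = 0.00447 by edgeR). In library 3 it was at 1746 against 15215 CPM, and the wild-type difference turned to -0.19 with all 3 libraries.

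Wnt feedback genes were not higher in the Reg3-high cells of GOF that the rule kept. Of 10 rated list members none was at least 2-fold higher and Dkk2 was lower (median log2 ratio -0.44, all genes -0.12), with Lgr5 and Notum at 0 by the rule. Over all genes 1.58% were at least 2-fold higher and 9.74% lower. A limit of 0 UMIs of Lgr5 and Notum is stricter in the deeper Reg3-high cells (median 13177 against 7338 UMIs). The contrast thus cannot separate a Wnt difference from the rule's own selection. Axin2, a general Wnt feedback gene picked after its values were seen, was at 38.7 against 62.6 CPM. Znrf3 was at 97.5 against 131 CPM and Tnfrsf19 at 26.4 against 50 CPM.

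Mitotic genes were higher in GOF Reg3-high cells. Of 22 rated, 10 were at least 2-fold higher and none lower (median log2 ratio 0.91, all genes -0.12), while in wild type 0 of 15 rose and 2 fell (median -1.35, all genes -0.01). Mki67, the general marker of cycling cells and picked after its values were seen, was at 33.6 against 15.5 CPM in GOF, and its 145 UMIs lay in 32 of the 254 cells. In wild type it was at 4.34 against 8.55 and 3.59 against 6.03 CPM (log2 fold change -0.86, adjusted p = 0.197 by edgeR). Top2a was at 42.6 against 24.7 CPM in GOF and at 8.68 against 12.6 and 4.49 against 8.82 CPM in wild type (-0.59, adjusted p = 0.264 by edgeR). Both genes were higher in Reg3-high cells in GOF and lower in both wild-type libraries. The Reg3-high cells of GOF were also deeper (median 13177 against 7338 UMIs), and the part of depth in the mitotic values was not tested. With classes from thinned cells the GOF difference of the cyclin gene Ccna2 turned to -0.34. It was the 1 named gene at least 2-fold apart that changed sign in that setting. The difference between the contrasts was not tested. The 2 list members that fell in wild type were Ube2c and Ccnb2 (-2.57 and -2.87, adjusted p = 0.0145 and 0.0365 by edgeR), at 40.1 against 21.7 and 19.2 against 11.5 CPM in GOF.

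Metabolic and secretory lists held smaller differences. Of 20 glycolysis and hypoxia genes 9 rose and none fell in wild type (median log2 fold change 0.41, all genes -0.01), and in GOF Hk2 was at least 2-fold higher and Bnip3 and Ndrg1 lower (median 0.03). Hk2 was at 85.4 against 26.6 and 103 against 22.5 CPM in wild type (1.97, adjusted p = 0.000659 by edgeR) and at 24.5 against 9.54 CPM in GOF. Of 20 genes of the secretory pathway and its stress response 7 rose in wild type with none lower (median 0.37), among them the chaperone Hsp90b1 (0.36, adjusted p = 0.0335 by edgeR) and Asns, which makes asparagine (1.04, adjusted p = 0.0162 by edgeR). None of 19 was 2-fold apart in GOF (median 0.15). Gsto1, a glutathione transferase, was at 1235 against 596 CPM in GOF and at 465 against 281 and 596 against 205 CPM in wild type (1.18, adjusted p = 0.0088 by edgeR). Of 19 STAT3 and acute phase genes 6 rose in wild type with none lower (median 0.18), while in GOF Lrg1 was at least 2-fold higher and Il6st, the shared receptor subunit of the interleukin 6 family, lower at 36.8 against 73.7 CPM (median -0.29).

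Of 15 Paneth, goblet and intestinal genes 7 were at least 2-fold higher in GOF Reg3-high cells and Lyz1 lower (median log2 ratio 0.98, all genes -0.12). Single cells carried part of this count: 1 cell held all 60 Muc2 UMIs of the class, 1 held 98.0% of Clca1, 1 held 76.2% of Guca2a, and the top cell held 29.9% of Fcgbp and 20.2% of Tff3. In wild type Spink4 alone of 15 rose, and Mptx1, Olfm4 and Agr2 fell (median -0.24, all genes -0.01). Tff3, a trefoil peptide of goblet cells, was at 619 against 258 CPM in GOF and at 1016 against 1537 and 854 against 379 CPM in wild-type libraries 1 and 2 (0.33, adjusted p = 0.635 by edgeR). The wild-type libraries thus lay on opposite sides for Tff3.

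Of 549 genes that rose in wild type and were rated in GOF, 385 were higher in GOF Reg3-high cells, 52 of them at least 2-fold (median log2 ratio 0.21). Of 458 that fell, 416 were lower, 164 of them at least 2-fold (median -0.66). Over all 11678 genes in both contrasts 4343 were higher and 7335 lower in GOF. Most genes of either kind lay on the same side in GOF, against a background that leans to lower values.

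**Figure D4:**
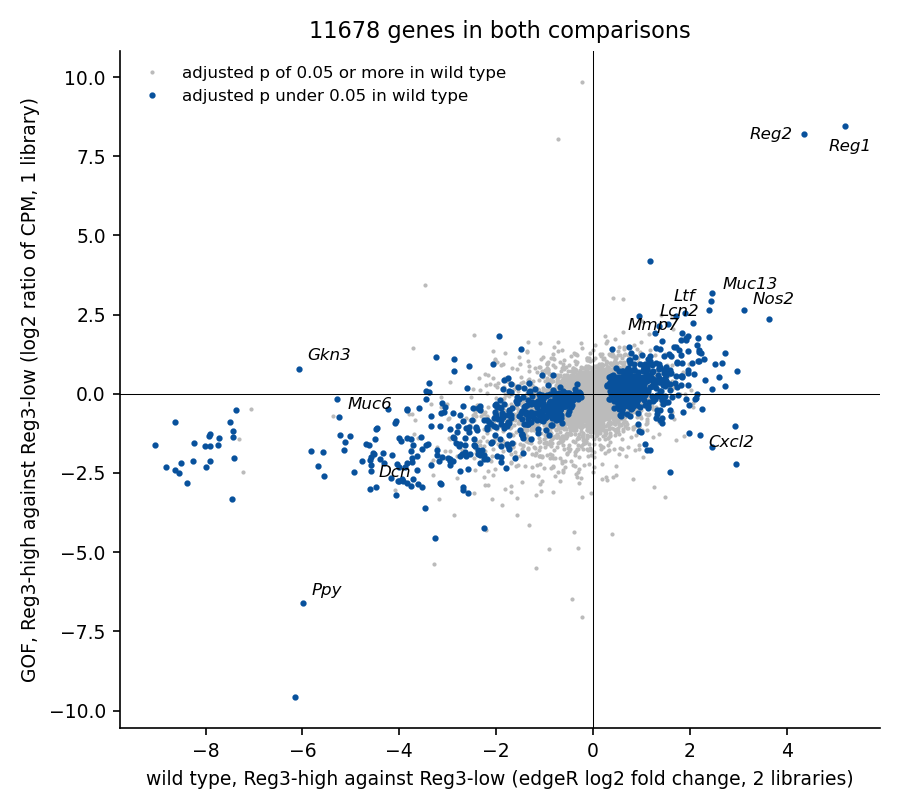
Log2 difference between Reg3-high and Reg3-low cells in wild type (x axis, edgeR, 2 libraries) and in GOF (y axis, log2 ratio of CPM, 1 library) for 11678 genes, with genes past the wild-type test in blue and Reg3b and Reg3g left out. Reg1 and Reg2 lie far out in both, Cxcl2 lies above 0 in wild type and below 0 in GOF, and the separate group at the far left holds genes with no UMI in wild-type Reg3-high cells, whose fitted values are not bounds.

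The wild-type test rests on the library block: without it 5 genes passed. With DESeq2 400 genes passed, and with cells limited to 5000 to 20000 UMIs, which narrows the depth gap, 497 passed.

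Reg3-high cells of the GOF library were then set against Reg3-high cells of wild-type libraries 1 and 2 with edgeR, the lone GOF library being assumed to vary like the others. Of 12104 genes, 1847 (15.3%) were higher and 986 (8.15%) lower in GOF at an adjusted p under 0.05. The test has 1 residual degree of freedom, so no library could be left out of it. With classes set on cells thinned to 2000 UMIs no gene passed the edgeR test (2727 at an unadjusted p under 0.05), and with DESeq2 732 genes passed, so the calls below hold for the classes as drawn. The genotype in this comparison cannot be told apart from a change in the processing software and from other differences between the libraries. Xist, the X-inactivation transcript, was at 723 CPM in GOF Reg3-high cells against 0.457 and 0.898 CPM. In Reg3-low cells it was at 444 CPM against 0.941, 2.46 and 1.25 CPM in wild-type libraries 1 to 3. The sex of the animals thus cannot be told apart from the genotype either. The median mitochondrial share per cell was 3.03% in GOF Reg3-high cells against 10.3% and 11.1%. RNA of other cell types differed as well. In GOF Reg3-high cells the fibroblast list was at 311 CPM against 16 and 79.0 in wild-type libraries 1 and 2. The mesothelial list was at 252 against 37.2 and 10.8 CPM and the macrophage list at 263 against 45.4 and 90.7 CPM. The acinar list (185 against 241 and 5233 CPM) and the endocrine list (3.24 against 25.6 and 20.6 CPM) were lower. The part of these differences in the results was not tested. Reg3-low cells of GOF set against those of the 3 wild-type libraries show which differences are shared by the epithelium: 1758 of 15570 genes (11.3%) were higher and 636 (4.08%) lower. Without TMM factors the split was 2527 higher and 539 lower in Reg3-high cells and 2847 and 276 in Reg3-low cells, with the median of all genes at 0.29 and 0.40 on the log2 scale in place of 0.03. DESeq2 gave 1802 higher and 1236 lower in Reg3-low cells.

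The marker genes did not all differ between the Reg3-high classes. Reg1 was higher in GOF (log2 difference 1.95, SE 0.235, adjusted p = 2.47e-06 by edgeR), and so were Reg2 (2.38, SE 0.289, adjusted p = 2.57e-06) and Mmp7 (2.53, SE 0.241, adjusted p = 9.98e-08). With wild-type library 3 and its acinar-rich cells added, the difference turned to -1.72 for Reg1 and to -4.91 for Reg2. The class values of Reg1 rest on its highest cells, since the 55 GOF cells with 100 or more Reg3 UMIs held 6990 of its 10448 UMIs. In cells with 10 to 29 Reg3 UMIs Reg1 was at 531 CPM in GOF against 253 and 631 CPM in wild-type libraries 1 and 2. In library 2, 364 of the 402 Reg1 UMIs of that bin lay in 16 cells with 10 to 12 Reg3 UMIs. The acinar list was at 25352 CPM over those 16 cells, although only 1 Reg3-high cell of library 2 had at least 1% acinar RNA. The library 2 value therefore cannot place GOF within the wild-type range. Mmp7 was at 3113 CPM in the GOF cells with 10 to 29 Reg3 UMIs against 383 and 474 CPM in libraries 1 and 2. In the 8 such cells of library 3, where the acinar list was at 126280 CPM, Mmp7 was at 3144 CPM, near the GOF level. Ltf (-0.30, SE 0.24, adjusted p = 0.405) and Lcn2 (-0.30, SE 0.273, adjusted p = 0.479) did not pass the test. In Reg3-low cells neither Reg1 (-2.12, adjusted p = 0.177 by edgeR) nor Mmp7 (0.67, adjusted p = 0.733 by edgeR) passed. Reg3b was at 3355 CPM in GOF against 516 and 226, and Reg3g at 4112 against 1672 and 1271, values that the rule selects on.

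Of 22 NF-κB and chemokine genes 11 were lower in GOF Reg3-high cells and 2, Icam1 and Il18, higher (median log2 difference -0.78, all genes 0.03), while among 24 tested in Reg3-low cells none was lower and Nfkb1 and Icam1 were higher (median 0.53, all genes 0.03). The difference between those results was not tested. Cxcl5 was lower by a log2 difference of -3.43 (adjusted p = 9.95e-09 by edgeR) and Nos2 by -3.86 (adjusted p = 1.63e-08). Cxcl2 (-1.81, adjusted p = 0.000295), Il1rn, the interleukin 1 receptor antagonist (-3.15, adjusted p = 1.8e-07), and Ccl20, a lymphocyte chemokine (-3.05, adjusted p = 4.06e-07), were lower as well, the last pair being picked after their values were seen. In Reg3-low cells Cxcl5 (-2.56, adjusted p = 0.348 by edgeR) and Nos2 (-3.06, adjusted p = 0.267) did not pass, with standard errors of 1.78 and 1.76.

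Of 21 secreted defence genes 11 were lower in GOF Reg3-high cells and 5 (Slpi, Saa3, Cfb, Hp and Chil4) higher (median log2 difference -0.98). In Reg3-low cells 4 of 23 (Wfdc15b, Wfdc18, Dmbt1 and Pglyrp1) were lower and Cfb higher (median -1.20). Pglyrp1 was at 3247 CPM in GOF against 6968 and 7674 in wild-type Reg3-high cells (-1.43, adjusted p = 0.000133 by edgeR), and Duox2 at 189 against 647 and 708 CPM (-2.10, adjusted p = 9.41e-06 by edgeR). Slpi was higher in GOF, at 430 against 75.1 and 95.2 CPM (2.09, adjusted p = 3.5e-06 by edgeR). Spink4 was at 3956 against 30712 and 34987 CPM (-3.31, adjusted p = 4.3e-09 by edgeR), with a like difference in Reg3-low cells (-3.67, adjusted p = 0.00498 by edgeR).

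Interferon genes and antigen presentation genes were higher in both GOF classes. Of 29 interferon genes 19 were higher and none lower in Reg3-high cells (median log2 difference 2.47), and 19 of 29 were higher in Reg3-low cells (median 2.08). Ifi27l2a was at 296 CPM in GOF against 6.39 and 6.28 (5.28, adjusted p = 3.65e-11 by edgeR), and Bst2, which tethers viruses to the cell surface, at 173 against 28.3 and 18.9 CPM (2.55, adjusted p = 1.56e-07 by edgeR). Of 21 antigen presentation genes 15 were higher in Reg3-high and 12 in Reg3-low cells, with none lower in either. H2-K1, a class I heavy chain, was at 1130 against 452 and 399 CPM in Reg3-high cells (1.15, adjusted p = 0.0014 by edgeR). Within GOF, 6 of 29 interferon genes were at least 2-fold higher in Reg3-high than in Reg3-low cells and Cxcl10 lower (median log2 ratio 0.60, all genes -0.12). In wild type Ifi27l2a fell (-2.07, adjusted p = 0.00139 by edgeR).

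Wnt feedback genes were higher in GOF although cells with Lgr5 or Notum had been left out. Of 9 tested 8 were higher in Reg3-high cells (median log2 difference 3.97), and of 13 in Reg3-low cells 6 were higher (median 2.03). The 1 lower member in both was Ctnnb1 itself (-1.71 and -1.29, adjusted p = 8.38e-05 and 0.0225 by edgeR). Axin2 was at 38.7 CPM against 1.83 and 2.69 in Reg3-high cells (3.97, adjusted p = 5.52e-07 by edgeR) and differed in Reg3-low cells too (3.01, adjusted p = 0.0108 by edgeR). Znrf3, a ligase that removes Wnt receptors, was at 97.5 against 14.6 and 18.0 CPM (2.37, adjusted p = 3.9e-07 by edgeR). Tnfrsf19 was at 26.4 CPM against 1 UMI in the wild-type cells together, a ratio of 145 with a counting interval of 25.5 to 5775. Sp5, a Wnt-induced factor picked after its values were seen, had no UMI in wild-type Reg3-high cells and was at least 36.9-fold higher in GOF against a floor of 3 counts over the group.

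Mitotic genes were higher in GOF Reg3-high cells at 20 of 21 tested, with none lower (median log2 difference 2.77), and Cenpf and Kif23 of 22 were higher in Reg3-low cells (median 0.95). Top2a was at 42.6 against 8.68 and 4.49 CPM (2.26, adjusted p = 6.79e-05 by edgeR). Mki67 was higher by a log2 difference of 2.75 (adjusted p = 2.05e-05 by edgeR) and did not pass in Reg3-low cells (0.59, adjusted p = 0.265 by edgeR). Glycolysis and hypoxia genes were lower, 11 of 20 with none higher (median -0.92). Hk2, the inducible hexokinase, was at 24.5 against 85.4 and 103 CPM (-2.18, adjusted p = 3.66e-06 by edgeR). In oxidative phosphorylation 10 of 22 were lower in Reg3-high and 12 of 22 in Reg3-low cells.

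Immediate early genes, which switch on within minutes of a stimulus, were higher in GOF: 20 of 27 in Reg3-high cells with Fosl2, Ier5 and Hspa1b lower, and 12 of 27 in Reg3-low cells with none lower. Fos was at 2809 CPM in GOF Reg3-high cells against 393 and 517 (2.37, adjusted p = 2.66e-07 by edgeR), and Jun at 2294 against 362 and 645 CPM (1.94, adjusted p = 2.26e-05 by edgeR). Within GOF these genes were lower in the Reg3-high class, with Fos at 2809 against 3454 and Jun at 2294 against 2940 CPM.

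The largest differences between the Reg3-high classes named by the rule were in genes at or near 0 in either group. Nkain2, Galnt2, Cpne1 and Hgs had no UMI in wild-type Reg3-high cells and were at 34.0, 32.6, 31.0 and 27.3 CPM in GOF, at least 62.3-fold, 59.8-fold, 56.8-fold and 50-fold higher against a floor of 3 counts over the group. All 4 were higher in Reg3-low cells as well, by log2 differences of 5.89 to 7.85, and lay at 0 to 0.716 CPM in the wild-type Reg3-low classes. St6galnac1, a sialyltransferase of mucin chains, had no UMI in GOF Reg3-high cells and was at 45.7 and 77.2 CPM in wild type, at least 75-fold lower in GOF. St6galnac1 had no UMI in GOF Reg3-low cells either, against 20.4, 14.3 and 2.51 CPM in those of wild-type libraries 1 to 3. The GOF and wild-type matrices came from different software versions and gene sets. For these 5 genes a difference in expression cannot be told apart from one in processing. The acinar enzymes Cela3b, Cpa1, Pnlip and Prss2 had no UMI in GOF Reg3-high cells either, and in wild type they lay mainly in library 2, at 217 to 310 CPM. In that library 1 Reg3-high cell had at least 1% acinar RNA.

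**Figure D5:**
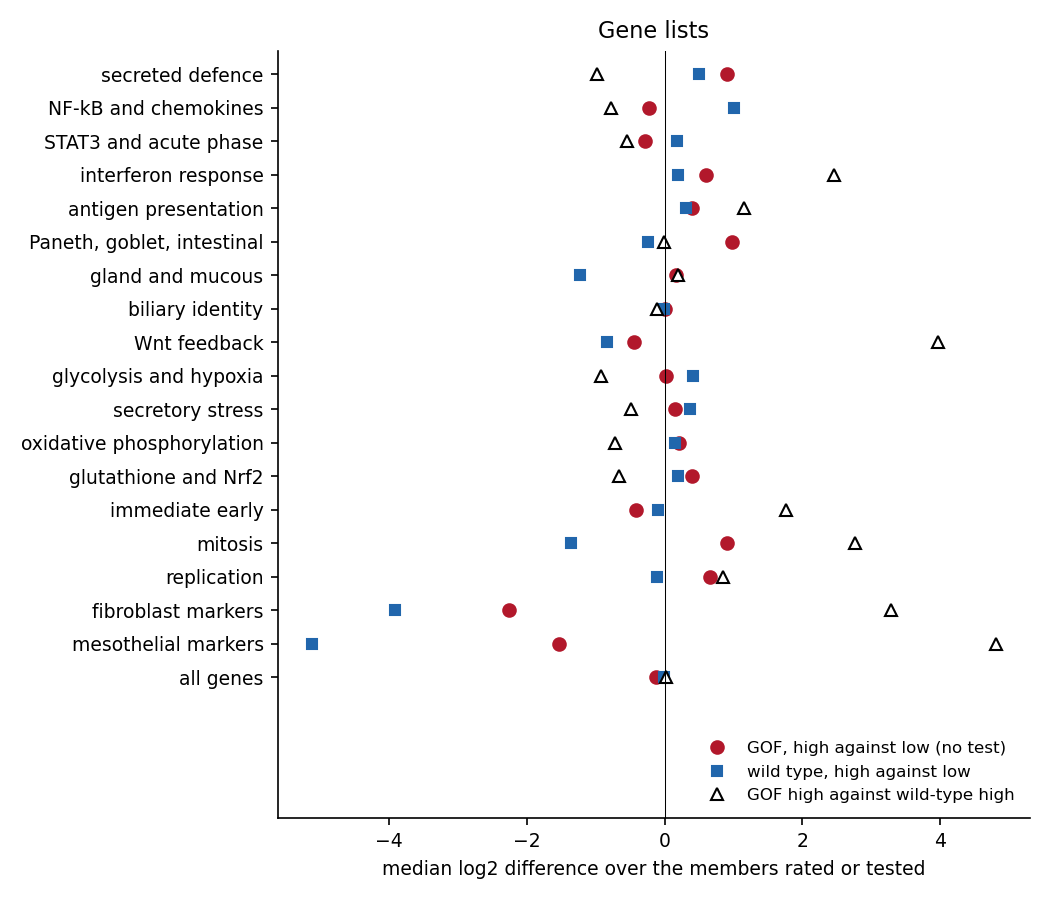
Median log2 difference over the genes of each list for 3 comparisons: Reg3-high against Reg3-low cells in GOF (no test), the same in wild-type libraries 1 and 2, and GOF against wild-type Reg3-high cells. Secreted defence lies above 0 within both genotypes and at -0.98 between them. Wnt feedback and interferon genes lie far to the right between genotypes. Fibroblast and mesothelial markers lie far to the left within both and far to the right between genotypes, with medians of 3.29 and 4.81 there.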

How the data were processed

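The authors deposited raw counts of UMIs for each gene in each barcode of 10x Chromium 3′ v3 libraries. Per the file headers, the GOF matrix came from Cell Ranger 7.0.0 (32285 genes) and the wild-type matrices from version 3.0.2 (31053 genes), while the submitters' processing notes name Cell Ranger 7.1 and mm10. Whether intronic reads were counted is not given in the sources used here. Genes with an identifier in both (30406) were kept, and 597 with differing symbols took the wild-type symbol.

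The libraries hold 10796 barcodes (GOF) and 6253, 3270 and 2649 (wild type 1 to 3), with 113596685, 43737469, 17358894 and 9558637 total UMIs. Classes held 4319299 Reg3-high and 33434253 Reg3-low UMIs in GOF, 4378679 and 24448610 in wild-type library 1 and 1113829 and 8952525 in library 2. Pairs of libraries shared 5 to 19 barcodes, at most 0.378% of the smaller library. Doublets were scored with Scrublet (scanpy 1.11.5) at 0.8% per 1000 barcodes and left out only as an alternative. UMIs were summed per library and class and tested with edgeR 4.0.16 (R 4.3.3; TMM, filterByExpr, quasi-likelihood test, Benjamini-Hochberg, threshold 0.05), checked on simulated data. Reg3-high and Reg3-low sums of a library form a block, since both classes come from the same capture. Intervals of CPM ratios and shares are exact binomial at 95% (scipy 1.17.1).

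Members and the 37 gene lists (631 entries, 4 unmatched) were chosen with earlier results of these data known. Named genes are the 6 markers, Epcam, Krt19, Ptprc, Prom1 and Ctnnb1; the 10 largest and smallest GOF ratios (at least 20 CPM and 50 UMIs); the 10 largest wild-type rises and falls past the threshold; the 5 largest differences each way between Reg3-high classes; and up to 4 genes per list (2 by level, 2 by ratio). Reg3b and Reg3g, mitochondrial, ribosomal and predicted genes were left out of the ranked sets. Genes named beyond this are said to be picked after their values were seen. Alternatives were no TMM factors, DESeq2 1.42.0, no filter, no block, other class limits, depth windows, mitochondrial and acinar limits, doublets and leaving out libraries. All 3 wild-type libraries and a limit of 1% RNA of other cell types were added after seeing the data. Promoter sequences are from RefSeq (GRCm38.p6) and were aligned with Biopython 1.88.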

Additional observations from a re-analysis of the deposited data

Results flagged for a closer look

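The sign of the contrast of Reg3-high with Reg3-low cells differed between GOF and both wild-type libraries for 2 genes of the lists, and the difference was not tested. Nrg1, which encodes the growth factor neuregulin 1, had a log2 difference of -1.27 in GOF and of 2.481 and 3.007 in wild-type libraries 1 and 2. The wild-type values rest on 1 UMI in each class of each library, so their sign follows from the class totals alone. Rrm2, a subunit of ribonucleotide reductase made in dividing cells, had a log2 difference of 1.626 in GOF and of -1.387 and -1.485 in libraries 1 and 2, with 10 and 2 UMIs in their Reg3-high cells. Rrm2 did not pass the wild-type test (adjusted p = 0.118 by edgeR), and in GOF cells with under 3 acinar UMIs its difference was -1.28, on the wild-type side.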

How the results depend on the processing

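The wild-type contrast of Reg3-high with Reg3-low cells called 1028 genes, Reg3b and Reg3g included. The count was 400 with DESeq2, 1879 with no filter on low counts, 5 with no replicate block, 497 with cells of 5000 to 20000 UMIs, 405 with under 3 acinar UMIs per cell, 602 with Reg3-high set at 5 or more UMIs (which brings in library 3) and 567 with all 3 wild-type libraries. All 1028 genes kept their direction without the block. The comparison of the Reg3-high classes called 2833 genes in the main setting, 732 with DESeq2, 1645 with 5000 to 20000 UMIs, 1333 with under 3 acinar UMIs, 829 at 5 or more UMIs, 753 with all 3 wild-type libraries and 0 with classes from thinned cells (2727 at an unadjusted p under 0.05 by edgeR). The Reg3-low comparison called 2394, with 1357 at 5000 to 20000 UMIs and 1530 (without library 2) to 2331 when each wild-type library was left out. Shares in GOF were 5.27% thinned, 9.29% at 5 or more UMIs, 3.51% at 30 or more, 8.12% with no limit on Lgr5 and Notum and 4.64% with under 3 acinar UMIs. In library 1 they were 5.46% thinned, 12.2% at 5 or more, 2.70% at 30 or more and 5.03% with under 3 acinar UMIs. In library 2 they were 7.48%, 1.28% and 2.25% at 5 or more, 30 or more and under 3 acinar UMIs, and in library 3 0.728% at 30 or more, 0% with under 3 acinar UMIs and 0.438% with under 1% RNA of other cells. With Reg3-high at 5 or more UMIs and with all 3 libraries, the difference between Reg3-high classes turned to -1.17 and -1.72 for Reg1, -4.33 and -4.91 for Reg2 and -0.47 and -0.99 for Igha, and the wild-type difference of Spink4 to -0.074 and -0.19. With all 3 libraries the wild-type difference turned to -0.14 for Epcam and -0.058 for Gapdh. Both settings bring in library 3. In GOF the difference turned to 0.17 for Igha with under 1% RNA of other cells, -0.34 for Ccna2 with classes from thinned cells and -1.28 for Rrm2 with under 3 acinar UMIs, and the cause was not tested. At 30 or more UMIs the tests were not run, since library 2 has under 20 such cells, and leaving out library 1 or 2 leaves no residual degree of freedom for the tests of Reg3-high cells. Depth limits what can be said of genes with few UMIs in the 60 Reg3-high cells of library 2.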
